A study of Mus musculus with 6 samples.

Results

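DNA methylation was measured at 42 listed genes of the pluripotency and early epiblast network by reduced representation bisulfite sequencing (RRBS), which reads methylation at single cytosines in the CpG-rich part of the genome. The genes were given by name. For each gene, CpGs were taken from 5 kb upstream of the gene start to the gene end, and a CpG was compared where the 2 libraries of each of the 3 cell types together gave at least 10 reads. By that rule 41 of the 42 genes had a compared CpG, Tdgf1 being the exception, and they held 3095 of the 1106782 compared CpGs on the chromosomes. Of these, 1754 lay within 1 kb of an annotated transcript start and are called promoter CpGs, and 1341 were remaining CpGs of the upstream sequence and the gene body. No CpG belonged to the windows of 2 listed genes. Regions with at least 3 compared CpGs were tested, which left the promoters of 37 genes and the remaining CpGs of 35 genes.

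The cells were male mouse lines in 3 groups, each with 2 libraries. C-iPSCs were induced from OG2 fibroblasts, which carry an Oct4-GFP reporter, with small molecules that included valproic acid and, in the second stage, the DNA methylation inhibitor 5-aza-2'-deoxycytidine. The 4F-iPSCs were induced from OG2 fibroblasts with retroviral Oct4, Sox2, Klf4, and c-Myc, whose sequence they may still carry. The mESCs were the established line E14. Both iPSC types were at passages 5 to 10 and the mESCs at passages 20 to 30, so the route to pluripotency cannot be told apart from the line or, against mESCs, from the passage. All were grown in serum with LIF and the inhibitors CHIR99021 and PD0325901. The sources differ on the support, since the labels name mitomycin C-treated feeder fibroblasts that were depleted on gelatin before collection, and the study's methods name plates coated with gelatin. The labels do not say whether the 2 libraries of a type came from separate clones or cultures, so the tests measure the spread between these libraries, which may be technical. In the main test of regions this spread was taken from regions of like depth, so a gene's own spread does not enter its p-value.

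Pluripotent cells are held in the naive state by transcription factors such as Nanog, Esrrb, Klf2, Tbx3, and Tfcp2l1, which bind one another's regulatory sequence. LIF acts through the receptor chains Lifr and Il6st (gp130) on Stat3 to keep this network active, whereas FGF and ERK signaling leads cells toward the formative and primed epiblast, where Fgf5, Otx2, and Pou3f1 are used. CpG-dense promoters are usually free of methylation in any cell type, whereas the CpG-poor promoters of genes such as Nanog, Dppa3, and Zfp42 are methylated in fibroblasts and unmethylated in pluripotent cells, and active enhancers are typically low in methylation.

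The sequences that carried the largest differences are shown first. Each line gives 30 bases of the GRCm38 plus strand around the CpG with the largest difference between 4F-iPSCs and mESCs in a hypermethylated run of a gene (runs are described further on, and for genes with several runs the run with the largest single difference is shown) or in a promoter with a strong CpG. The CpG is in capitals.
Dppa2 chr16:48300961-48300990: taagagcagccgggCGaggtggcacacacc
Nr5a2 chr1:136861945-136861974: gaccgtcctattatCGcccaatacttccta
Lifr chr15:7097772-7097801: aatttcacttgtagCGccccggatgtggaa
Esrrb intron chr12:86452141-86452170: gtactgtgagcttcCGttcctctagaaccc
Sall1 chr8:89030601-89030630: accattggcgaactCGcctggccccactcg
Cdh1 exon chr8:106649082-106649111: ccatcacagtgaagCGgcatctaaagctcc
Epcam chr17:87646184-87646213: agtgaacggagagcCGctcgatctggaccc
Sall4 chr2:168754727-168754756: aagcccagagagggCGatgccaggtgggca
Prdm14 chr1:13118600-13118629: ttcctgggcacattCGctcacgctcacaca
Esrrb promoter chr12:86361094-86361123: agacctgtactcacCGgctctctgtgccca
Cdh1 promoter chr8:106602549-106602578: gaacagattttagcCGggcagtaaggtagt
Spp1 promoter chr5:104436574-104436603: aaggtaagcacctcCGggttgatcatttaa

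At the first of these CpGs, upstream of Dppa2, the level was 7.69% and 12.8% (mESCs), 55.3% and 65.9% (C-iPSCs), and 81.0% and 84.4% (4F-iPSCs). The Esrrb intron CpG was at 6.25% and 10.0% (mESCs), 36.6% and 38.1% (C-iPSCs), and 72.2% and 75.8% (4F-iPSCs). At both, the 3 cell types did not overlap and C-iPSCs lay between. Both CpGs were chosen for the difference between 4F-iPSCs and mESCs, so these values are a description.

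Sequences of the opposite kind, low in each cell type although they lie outside CpG-dense DNA, were chosen after their levels were seen. Capitals again mark compared CpGs on the plus strand of GRCm38. The upstream sequence of Nanog holds 5 of them and an intron of Esrrb holds 12.
Nanog chr6:122702864-122703068: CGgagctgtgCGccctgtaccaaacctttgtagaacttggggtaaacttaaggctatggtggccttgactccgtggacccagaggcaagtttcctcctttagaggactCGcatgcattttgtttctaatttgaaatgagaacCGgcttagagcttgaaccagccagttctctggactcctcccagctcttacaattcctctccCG
Esrrb chr12:86402897-86403119: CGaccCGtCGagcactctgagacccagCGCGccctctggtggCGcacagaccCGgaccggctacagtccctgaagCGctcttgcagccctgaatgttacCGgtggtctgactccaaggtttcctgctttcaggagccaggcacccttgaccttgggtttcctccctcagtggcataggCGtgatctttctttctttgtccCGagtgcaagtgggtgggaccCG

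Each library held between 53694199 and 96534037 reads on CpGs, with a median of 31 to 54 reads per CpG. The tested member promoters held at least 86 reads in each library and the remaining CpGs at least 119. On mitochondrial DNA, where little methylation is known and a methylated call is mostly a cytosine that bisulfite did not convert, the methylated share was 5.39% and 3.29% (mESCs), 3.12% and 5.38% (C-iPSCs), and 3.33% and 7.90% (4F-iPSCs). The median level over all 14176 tested promoters moved in the same order within each cell type, from 2.07% in C-iPSC replicate 1 to 3.94% in 4F-iPSC replicate 2. Of the 37 member promoters, 32 had their highest level in 4F-iPSC replicate 2, and the part of conversion in this was not tested. Promoter differences of a few percentage points are therefore of the size of this spread between libraries.

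The labelled cell type was checked at CpG-poor promoters of genes used by pluripotent cells. The promoter of Zfp42 (Rex1), a marker of naive cells, was at 6.77% and 6.34% (mESCs), 6.41% and 10.3% (C-iPSCs), and 9.21% and 18.3% (4F-iPSCs) over 7 CpGs. That of Tcl1, a coactivator of Akt, stood between 4.64% and 8.33% in the 6 libraries over 4 CpGs. At Nanog 2 promoter CpGs were compared, 602 and 631 bp downstream of the start at chr6:122707489. The first had no methylated read among 80 in mESCs, which allows up to 3.75%, and was at 0.939% of 213 reads in C-iPSCs and 4.64% of 151 in 4F-iPSCs. The other was at 7.89% of 38 reads, 17.8% of 107, and 19.0% of 79. Dppa5a, which encodes an RNA-binding protein, had 1 promoter CpG, with 0 of 22 reads methylated in mESCs (up to 13.6% allowed), beside 16.7% of 54 reads (C-iPSCs) and 3.23% of 31 (4F-iPSCs). These limits cover counting error only, since PCR copies of a molecule were not told apart. Dppa3 (Stella), Tdgf1, and Lefty2 had no compared promoter CpG. Among 10 genes that mark fibroblasts, 6 promoters were covered, and their median was 6.55% (mESCs), 8.78% (C-iPSCs), and 11% (4F-iPSCs). MEFs were not analysed here, so a share of feeder cells could not be read from these levels and was not tested.

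Member promoters were almost free of methylation in all 3 cell types. Of the 37 promoters, 24 were under 5% and 32 under 10% in every library. At 3 of the 37 (Dppa2, Fbxo15, and Nr5a2) the compared CpGs lay around internal starts only. The median promoter level was 2.51% and 2.16% (mESCs), 2.08% and 2.86% (C-iPSCs), and 2.02% and 4.17% (4F-iPSCs), beside 2.47% and 2.19%, 2.07% and 2.95%, and 2.22% and 3.94% over all genes. Differences were tested with a quasi-binomial model of methylated and unmethylated reads in the 6 libraries, fitted on all genes and adjusted over all of them, and a region was called at an adjusted p under 0.05. By this test 1 of 37 member promoters was hypermethylated in 4F-iPSCs against mESCs, where 13.2% of all promoters were. None of the 37 was hypermethylated in C-iPSCs against mESCs (6.24% of all promoters) or in 4F-iPSCs against C-iPSCs (5.85%). At an unadjusted p under 0.05 these numbers were 0 and 1, and the share of all promoters at that threshold is not given here. Limma on the mean CpG level called 0 and 1 (Spp1) of the 37, beside 310 and 194 of all 14176 promoters. None was hypomethylated in these comparisons, where the share of all promoters was 0.176%, 0.148%, and 0.198%, and 0 were so at an unadjusted p under 0.05 or in limma. Without a test, both 4F-iPSC libraries lay above both mESC libraries at 12 of 37 member promoters and at 38.6% of all promoters.

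**Figure D1:**
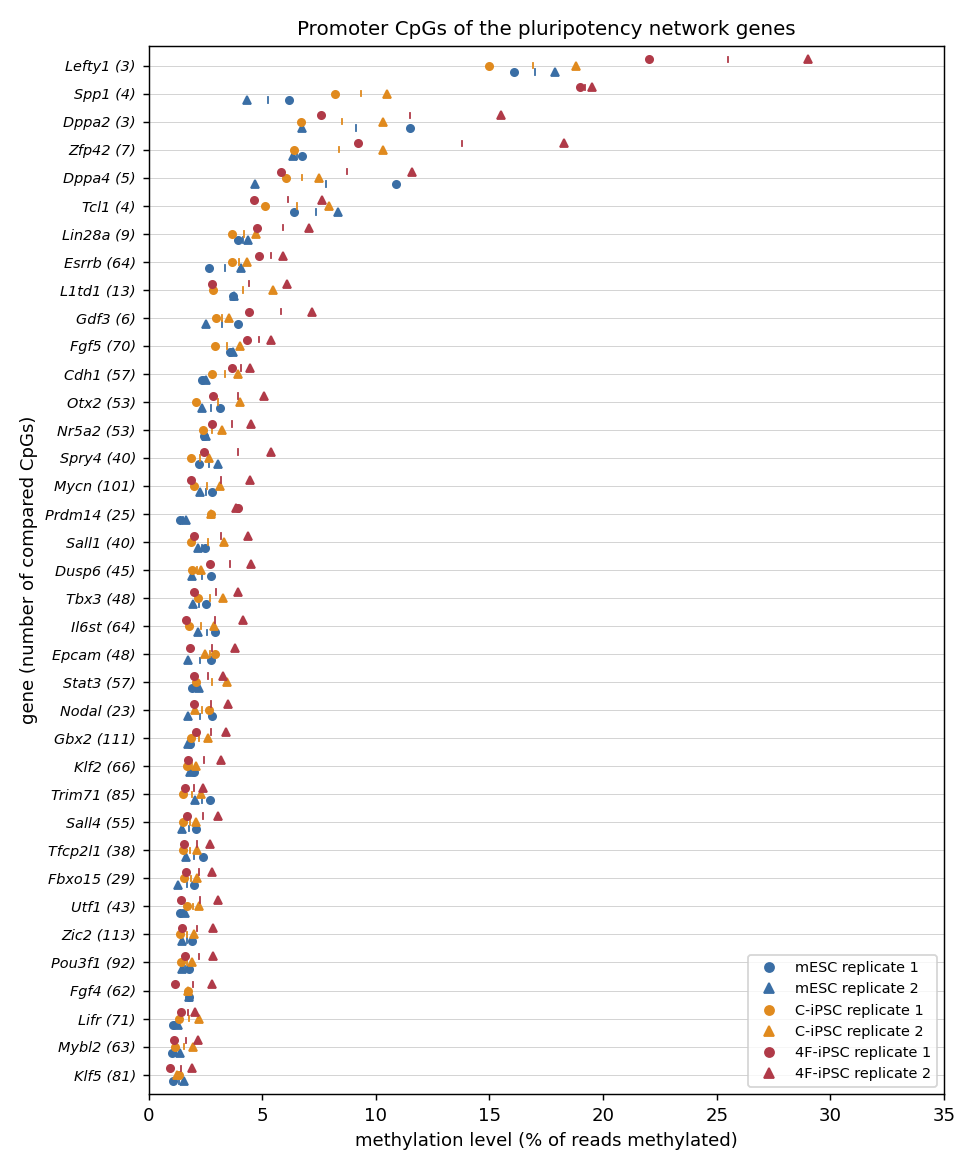
Methylation level (percent of reads methylated, horizontal axis) of the promoter CpGs of 37 pluripotency network genes, with the number of compared CpGs after each name. Circles are replicate 1, triangles replicate 2, and short bars the mean of the 2 libraries. 32 genes lie under 10% in every library, and Spp1, Lefty1, and Zfp42 are the genes whose 4F-iPSC libraries reach highest.

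The called promoter was that of Spp1, which encodes the secreted protein osteopontin (chr5:104435118-104441050). Its 4 CpGs were at 6.19% and 4.31% (mESCs), 8.19% and 10.5% (C-iPSCs), and 19.0% and 19.5% (4F-iPSCs). The difference between 4F-iPSCs and mESCs was 13.7 percentage points ± 3.97 (SE), with an adjusted p of 0.00509. It rested on 86 to 210 reads per library, and the adjusted p was 0.123 without mESC replicate 1 and 0.0923 without mESC replicate 2. Spp1 was also not called when only CpGs with at least 10 reads in each library were used. Against C-iPSCs, the difference of 10.3 points ± 4.43 had an adjusted p of 0.247. The CpGs near the most upstream start, at -237 and -190 bp, differed by 10.2 and 0.847 points between 4F-iPSCs and mESCs. Those around internal starts, at 1323 bp in a coding exon and 1470 bp in an intron, differed by 29.5 and 38.6 points. With promoters drawn around the most upstream start alone, Spp1 had too few CpGs to be tested, and the 1 member called in 4F-iPSCs against mESCs was Esrrb. A CpG in an intron of Spp1, at chr5:104436588, was strongly hypermethylated in 4F-iPSCs against both other types, at 61.1% and 27.3% against 21.1% and 10.3% in mESCs and 22.7% and 11.1% in C-iPSCs. These levels rested on 36 and 11 reads in 4F-iPSCs, 19 and 29 in mESCs, and 22 and 9 in C-iPSCs. Most of the summed 4F-iPSC reads thus came from replicate 1. A strongly hypermethylated CpG is one that differed by more than 33.3 percentage points with an unadjusted p under 0.05 when the summed reads were compared by Fisher's exact test.

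The promoters with the next largest differences between 4F-iPSCs and mESCs did not pass. Lefty1, which encodes an inhibitor of Nodal, was at 16.1% and 17.9% (mESCs), 15.0% and 18.8% (C-iPSCs), and 22.0% and 29.0% (4F-iPSCs), a difference of 8.43 points with a 95% interval from -0.766 to 17.6 (adjusted p = 0.416). At Zfp42 the difference was 6.42 points, from 0.216 to 12.6, with an adjusted p of 0.288. Its adjusted p was 0.0131 in limma on the mean of the CpG levels, and its 4F-iPSC libraries lay far apart. Prdm14, a repressor of epiblast genes in naive cells, was at 1.37% and 1.66% (mESCs), 2.74% and 2.75% (C-iPSCs), and 3.94% and 3.83% (4F-iPSCs), a difference of 2.40 points (adjusted p = 0.273). Gdf3, which encodes a TGF-beta family ligand, was at 3.95% and 2.51%, 2.95% and 3.53%, and 4.42% and 7.20%, a difference of 2.07 points. Lin28a, which encodes a let-7 binding protein, was at 3.92% and 4.36%, 3.69% and 4.73%, and 4.77% and 7.06%, a difference of 1.77 points, and both had an adjusted p of 0.863. Between C-iPSCs and mESCs the largest promoter differences were 3.43 points at Spp1, 1.33 at Zfp42, and -1.33 at Tcl1, then 1.26 at Prdm14 and -1.16 at Dppa4, all with an adjusted p of 1. The Dppa4 libraries overlapped, at 10.9% and 4.67% (mESCs), 6.03% and 7.51% (C-iPSCs), and 5.82% and 11.6% (4F-iPSCs). Between 4F-iPSCs and C-iPSCs, Dppa2 differed by 2.51 points and Gdf3 by 2.28, both with an adjusted p of 0.927.

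At Esrrb, an orphan nuclear receptor of the naive network (chr12:86361117-86521628), the promoter level hid a difference between its start sites. Over 64 promoter CpGs the level was 2.66% and 4.06% (mESCs), 3.65% and 4.35% (C-iPSCs), and 4.84% and 5.91% (4F-iPSCs), a difference of 2.14 points between 4F-iPSCs and mESCs (adjusted p = 0.331). Of these CpGs, 57 lay in dense sequence, between 60642 and 61758 bp from the most upstream start, around 2 of the internal starts. A CpG is in dense sequence where the 500 bp around it have a GC share over 0.5 and an observed-to-expected CpG ratio over 0.6. The other 7 CpGs lay outside it, 5 of them around the most upstream start. Those 7 were at 19.2% and 28.9% (mESCs), 45.1% and 46.1% (C-iPSCs), and 63.8% and 62.9% (4F-iPSCs), with no overlap between the cell types. In a fit on CpGs outside dense sequence, chosen after seeing the data, 4F-iPSCs were above mESCs by 39.0 points (adjusted p = 3.06e-05) and C-iPSCs were above mESCs by 21.1 points (adjusted p = 0.0264). The difference of 17.9 points between 4F-iPSCs and C-iPSCs did not pass (adjusted p = 0.0694). Around the most upstream start alone, an alternative that did not use sequence density, the 5 CpGs of Esrrb were at 22.8% and 39% (mESCs), 48.3% and 47.1% (C-iPSCs), and 74.4% and 65.3% (4F-iPSCs). There 4F-iPSCs were above mESCs by 39.7 points (adjusted p = 3.89e-07) and above C-iPSCs by 22.7 points (adjusted p = 0.0263), and the 17 points between C-iPSCs and mESCs did not pass (adjusted p = 0.317). The 3 strongly hypermethylated CpGs of this promoter lie at chr12:86361108, 86361824, and 86361983. The CpG at chr12:86361108, -9 bp from the start, was at 3.7% and 15.4% (mESCs), 46.2% and 21.1% (C-iPSCs), and 63.6% and 38.1% (4F-iPSCs). The CpG at chr12:86361983 was at 33.3% and 52.2%, 40% and 64.3%, and 89.7% and 86.2%, and was also strongly hypermethylated against C-iPSCs.

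Cdh1, which encodes E-cadherin, the adhesion protein of epithelial and pluripotent cells, also differed mainly outside dense sequence (chr8:106603351-106670246), although 56 of its promoter CpGs lay around 1 start, the most upstream. Its 57 promoter CpGs together were at 2.35% and 2.53% (mESCs), 2.78% and 3.94% (C-iPSCs), and 3.68% and 4.45% (4F-iPSCs). The 12 outside dense sequence were at 8.66% and 7.66%, 10.4% and 20.4%, and 21.8% and 18.4%, and 4F-iPSCs were above mESCs by 12.1 points (adjusted p = 0.0219). The CpG at chr8:106602563, -788 bp from the start, was at 35.9% and 28.6% (mESCs), 59.5% and 75.6% (C-iPSCs), and 80.9% and 83.7% (4F-iPSCs), and was strongly hypermethylated in both iPSC types. Another, at chr8:106602683, was strongly hypermethylated in 4F-iPSCs, with 70.0% and 61.1% against 18.9% and 37.5% in mESCs. Outside dense sequence, promoters could be tested at 25 members, and Esrrb, Cdh1, and Spp1 were called higher in 4F-iPSCs than in mESCs, which is 3 of 25 beside 29.7% of 7057 genes. Esrrb was the 1 member called higher in C-iPSCs than in mESCs (12.4% of genes), and none of the 25 was called between 4F-iPSCs and C-iPSCs (10.2%), where 2 had an unadjusted p under 0.05.

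Of the 1754 promoter CpGs of members, 6 were strongly hypermethylated in 4F-iPSCs against mESCs, 3 at Esrrb, 2 at Cdh1, and 1 at Spp1. That is 0.342% of them, beside 1.05% of all promoter CpGs. In C-iPSCs against mESCs the number was 1 (0.057%, beside 0.177%), and in 4F-iPSCs against C-iPSCs it was 2 (0.114%, beside 0.158%). No promoter CpG of a member was strongly hypomethylated in any of the 3 comparisons, which was rare among all promoter CpGs too, at 0.00541%, 0.0106%, and 0.00355%.

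The remaining CpGs of members were low in methylation compared with those of most genes. Their median level over 35 genes was 12.2% and 11.1% (mESCs), 10.1% and 15.8% (C-iPSCs), and 15.1% and 20.3% (4F-iPSCs), beside 38.3% and 43.1%, 52.5% and 64.2%, and 69.8% and 71.7% over 14106 genes. Of the 35 members, 30 (mESCs), 28 (C-iPSCs), and 29 (4F-iPSCs) lay below the median of all genes. The member with the median rank stood at percentile 13.1 (mESCs), 11.1 (C-iPSCs), and 11.5 (4F-iPSCs). These are descriptions, since the members share libraries and are not replicates.

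In 4F-iPSCs against mESCs, 18 of 35 members were called hypermethylated in their remaining CpGs, beside 84.7% of all genes. In C-iPSCs against mESCs the number was 7, beside 57%, and in 4F-iPSCs against C-iPSCs it was 3, beside 31.3%. None was called hypomethylated in the 3 comparisons, where the share of all genes was 0.0709% each, and 0 were so at an unadjusted p under 0.05 or in limma. Limma on the mean CpG level called 21 members in 4F-iPSCs against mESCs, the same 18 with Lefty1, Otx2, and Sall1. In C-iPSCs against mESCs it called 8, with Mybl2 and Zfp42 gained and Cdh1 lost. In 4F-iPSCs against C-iPSCs it called 4 (Mybl2, Otx2, Sall4, and Spry4), none of them among these 3. Over all 14106 genes limma called 12862, 8528, and 1384 hypermethylated in the 3 comparisons. Both 4F-iPSC libraries lay above both mESC libraries at 26 of 35 members, and at 94.7% of all genes. These counts depended on single libraries. The share of all genes called without a library is not given here or below, so the counts without a library are no result about the members. The number of members called was 10 without either mESC library or without 4F-iPSC replicate 2, and 13 without 4F-iPSC replicate 1. In C-iPSCs against mESCs it was 0 without mESC replicate 1 and 12 without C-iPSC replicate 1, with Esrrb, Nr5a2, Zfp42, Fgf5, and Mybl2 gained. In 4F-iPSCs against C-iPSCs it was 19 without C-iPSC replicate 2, 1 (Fgf5) without C-iPSC replicate 1, and 0 without any one mESC or 4F-iPSC library. The 19 included both adhesion genes, Fgf4, Spry4, Otx2, Lefty1, and Mybl2, beside LIF pathway genes and naive factors. The dispersion was estimated over the 3 cell types together, and its median over genes was 14.2 in the fit of 6 libraries and 6.39 or 6.37 without a C-iPSC library. It was 19.8 or 20.1 without an mESC library and 20.6 without either 4F-iPSC library.

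**Figure D2:**
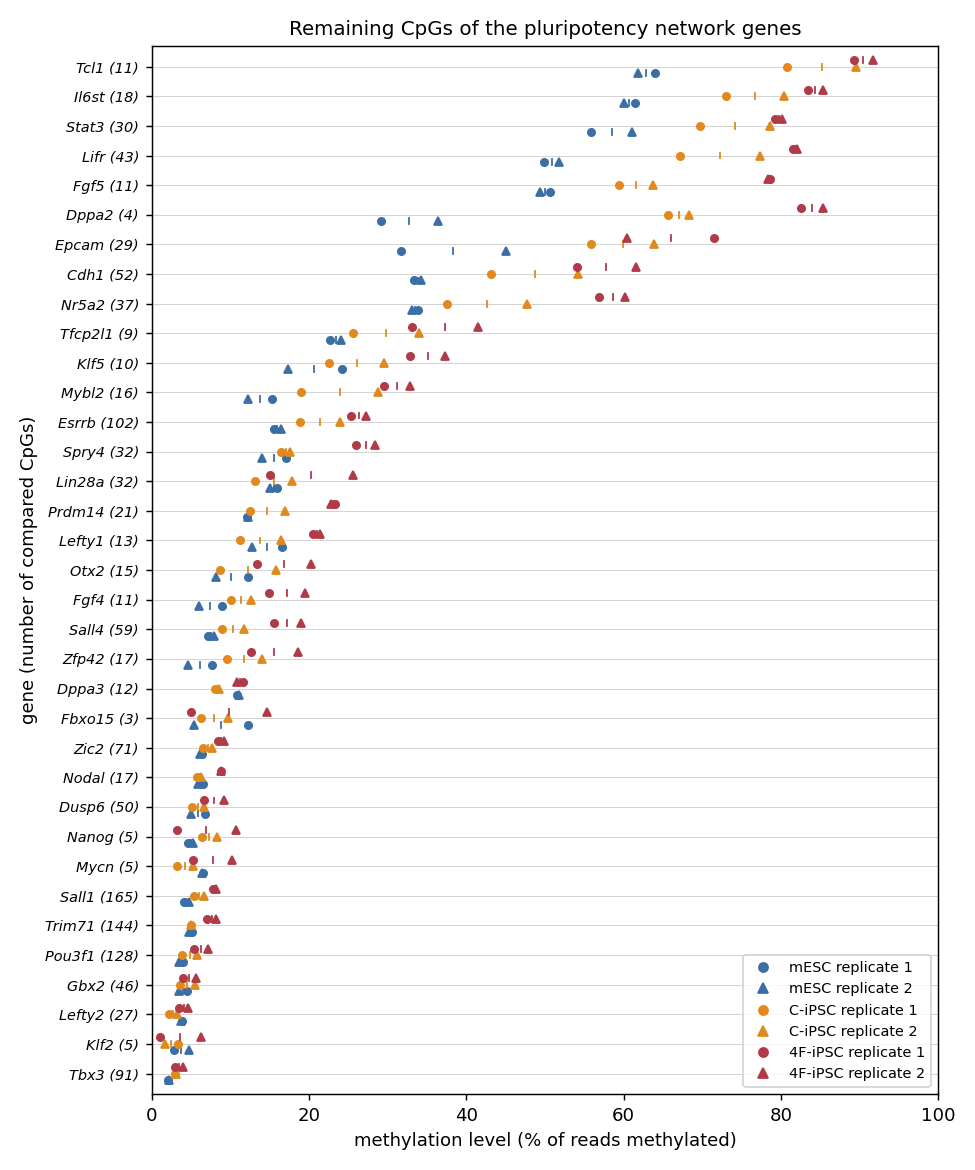
Methylation level (percent of reads methylated, horizontal axis) of the remaining CpGs of 35 pluripotency network genes, with the number of compared CpGs after each name, as circles (replicate 1), triangles (replicate 2), and short bars for the mean of the 2 libraries. From Nr5a2 upward the means follow in the order of mESCs, C-iPSCs, and 4F-iPSCs, and the 14 genes at the bottom have means under 12% in each cell type.

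Among naive transcription factors, 7 of 12 were called hypermethylated in 4F-iPSCs against mESCs (Zfp42, Esrrb, Klf5, Tfcp2l1, Prdm14, Nr5a2, and Sall4), beside the 84.7% of all genes. None was called between C-iPSCs and mESCs (57% of all genes), where limma called Zfp42 (adjusted p = 0.00547). Between the iPSC types 1 was called (Nr5a2, beside 31.3%), and limma called Sall4 there in its place (adjusted p = 0.0412). Without C-iPSC replicate 1, 3 of the 12 were called in C-iPSCs against mESCs (Esrrb, Nr5a2, and Zfp42). Without C-iPSC replicate 2, 6 were called between the iPSC types (Esrrb, Klf5, Nr5a2, Prdm14, Sall4, and Tfcp2l1), and none when any other single library was left out. Of the 7 called in 4F-iPSCs against mESCs, Nr5a2 alone was called without mESC replicate 1 or without 4F-iPSC replicate 2. Nr5a2 and Sall4 were called without mESC replicate 2, and 4 of the 7 (Esrrb, Nr5a2, Sall4, and Zfp42) without 4F-iPSC replicate 1. The largest of these differences was at Nr5a2, which encodes an orphan nuclear receptor (chr1:136842571-136960448). Its 37 CpGs were at 33.9% and 33.1% (mESCs), 37.5% and 47.7% (C-iPSCs), and 56.9% and 60.2% (4F-iPSCs). Thus 4F-iPSCs were above mESCs by 25.0 points ± 5.13 (adjusted p = 5.92e-06) and above C-iPSCs by 16.1 points ± 4.82 (adjusted p = 0.0128), though limma on the mean CpG level gave 0.126 for the latter. Esrrb had 102 remaining CpGs, at 15.5% and 16.4% (mESCs), 18.8% and 24.0% (C-iPSCs), and 25.4% and 27.2% (4F-iPSCs), a difference of 10.4 points ± 3.73 between 4F-iPSCs and mESCs (adjusted p = 0.00816). Klf5, a Kruppel-like factor, was at 24.2% and 17.3%, 22.5% and 29.6%, and 32.8% and 37.3%, a difference of 13.9 points (adjusted p = 0.0291), and its 9.89 points over C-iPSCs did not pass (adjusted p = 0.168). At Sall4, a zinc finger factor, the levels were 7.22% and 7.88%, 8.93% and 11.8%, and 15.5% and 19.0%, a difference of 9.60 points (adjusted p = 0.00555).

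The other 5 naive factors, Nanog, Klf2, Tbx3, Sall1, and Gbx2, were under 12% in each cell type and were not called. Tbx3, a T-box factor, had 91 CpGs at 2.12% and 2.19% (mESCs), 2.92% and 3.12% (C-iPSCs), and 3.03% and 3.99% (4F-iPSCs). Gbx2, a homeobox factor, had 46 CpGs between 3.53% and 5.58% in the 6 libraries. Sall1, which is related to Sall4, had 165 CpGs at 4.13% and 4.71%, 5.38% and 6.69%, and 7.74% and 8.16%, with a difference of 3.59 points that missed the threshold (adjusted p = 0.105) and passed it in limma (adjusted p = 0.00171). At Nanog the 5 CpGs lay upstream of the gene. Both C-iPSC libraries, at 6.38% and 8.28%, were above the 4.68% and 5.30% of mESCs, and the 4F-iPSC libraries, at 3.28% and 10.7%, lay on either side of all of these.

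LIF receptor pathway genes were the most methylated group and all 3 were called hypermethylated in both iPSC types against mESCs, as were 84.7% (4F-iPSCs) and 57% (C-iPSCs) of all genes. In 4F-iPSCs all 3 were called whichever library was left out. In C-iPSCs none was called without mESC replicate 1, and Lifr and Stat3 were called without mESC replicate 2. The receptor chain Lifr (chr15:7090614-7197489) had 43 remaining CpGs, at 49.9% and 51.8% (mESCs), 67.2% and 77.4% (C-iPSCs), and 81.6% and 82.0% (4F-iPSCs). It was higher by 31.1 points ± 4.75 in 4F-iPSCs (adjusted p = 1.23e-09) and by 21.6 points ± 5.10 in C-iPSCs (adjusted p = 0.000605). The shared chain Il6st was at 61.4% and 60%, 73.0% and 80.4%, and 83.4% and 85.3%, with differences of 23.6 points (adjusted p = 3.29e-05) and 16.2 points (adjusted p = 0.0122). Stat3, the transcription factor that LIF activates, was at 55.9% and 61.1%, 69.7% and 78.6%, and 79.3% and 80.1%, with differences of 22.1 points (adjusted p = 1.08e-05) and 16.8 points (adjusted p = 0.00433). Between the 2 iPSC types none of the 3 passed (31.3% of all genes did), and the difference at Lifr was 9.52 points (95% interval from 1.52 to 17.5, adjusted p = 0.0562). All 3 were called there without C-iPSC replicate 2, and none when any other single library was left out. At their promoters the same genes stood between 1.06% and 4.17% in the 6 libraries.

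Dppa genes and other stem cell genes ranged most widely, and 2 of 6 were called in both iPSC types against mESCs, beside 84.7% (4F-iPSCs) and 57% (C-iPSCs) of all genes. Dppa2, which encodes a chromatin protein of early embryos and is neighbor to Dppa4, had the largest difference of any member, over 4 CpGs that all lie upstream of its start at chr16:48303908. The reference marks 3 of these 4 CpGs as repeat sequence. They were at 29.1% and 36.4% (mESCs), 65.7% and 68.3% (C-iPSCs), and 82.6% and 85.3% (4F-iPSCs). The 4F-iPSCs were above mESCs by 51.3 points ± 7.04 (adjusted p = 1.1e-10), C-iPSCs above mESCs by 33.9 points ± 8.27 (adjusted p = 0.0011), and 4F-iPSCs above C-iPSCs by 17.4 points ± 6.05 (adjusted p = 0.0221, and 0.105 in limma). No promoter CpG was compared around that start. The 3 promoter CpGs of Dppa2 lie in an intron, 6178 to 6279 bp downstream of it, around an internal start, and were at 11.5% and 6.75%, 6.69% and 10.3%, and 7.57% and 15.5%, with overlapping libraries. Tcl1 was the most methylated member, at 64.0% and 61.8%, 80.8% and 89.6%, and 89.3% and 91.7% over 11 CpGs, with differences of 27.4 points in 4F-iPSCs (adjusted p = 1.28e-07) and 22.3 points in C-iPSCs (adjusted p = 0.000669) against mESCs. Dppa3, Fbxo15, Lin28a, and Trim71 were not called. Dppa3, which protects the maternal genome from demethylation, was at 10.8% and 11.1% (mESCs), 8.11% and 8.60% (C-iPSCs), and 11.6% and 10.8% (4F-iPSCs). Trim71, a target of let-7, had 144 CpGs between 4.80% and 8.14% in the 6 libraries.

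Both adhesion genes with remaining CpGs were called in both iPSC types against mESCs, where 84.7% (4F-iPSCs) and 57% (C-iPSCs) of all genes were. Epcam, an epithelial surface protein, was at 31.7% and 45.0% (mESCs), 55.9% and 63.9% (C-iPSCs), and 71.5% and 60.4% (4F-iPSCs) over 29 CpGs. It was higher by 29.5 points in 4F-iPSCs (adjusted p = 7.91e-08) and by 24.0 points in C-iPSCs (adjusted p = 0.000312) than in mESCs, and the latter call was lost without mESC replicate 1. Cdh1, with 52 CpGs at 33.3% and 34.2%, 43.2% and 54.2%, and 54.1% and 61.6%, was higher by 23.9 points (adjusted p = 7.79e-06) and 14.5 points (adjusted p = 0.0137). The latter had an adjusted p of 0.0536 in limma and was not called without either mESC library. In both genes the libraries of the 2 iPSC types overlapped.

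Formative genes differed among themselves, and 1 of the 4 with remaining CpGs was called in 4F-iPSCs, beside 84.7% of all genes against mESCs and 31.3% against C-iPSCs. Fgf5, a ligand of the early epiblast (chr5:98254184-98277030), was at 50.7% and 49.4% (mESCs), 59.4% and 63.8% (C-iPSCs), and 78.6% and 78.4% (4F-iPSCs) over 11 CpGs. The 4F-iPSCs were above mESCs by 28.3 points ± 5.72 (adjusted p = 2.71e-06) and above C-iPSCs by 16.7 points ± 5.13 (adjusted p = 0.0145), the latter with 0.180 in limma. The difference of 11.5 points between C-iPSCs and mESCs did not pass (adjusted p = 0.0963). Otx2, Zic2, and Pou3f1, which encode transcription factors, were not called in any comparison by the quasi-binomial test. Limma called Otx2 in 4F-iPSCs against mESCs (adjusted p = 7.37e-05) and against C-iPSCs (adjusted p = 0.0284). Pou3f1 (Oct6) had 128 CpGs at 3.99% and 3.51% (mESCs), 3.87% and 5.82% (C-iPSCs), and 5.43% and 7.21% (4F-iPSCs). Utf1 had no remaining CpG compared.

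In FGF and ERK signaling, the ligand Fgf4 and the feedback inhibitor Spry4 were called in 4F-iPSCs against mESCs, and the ERK phosphatase Dusp6 was not, which is 2 of 3 beside 84.7% of all genes. Both calls were lost on leaving out any one of the mESC or 4F-iPSC libraries. Fgf4 was at 8.92% and 5.96% (mESCs), 10.1% and 12.6% (C-iPSCs), and 14.9% and 19.5% (4F-iPSCs) (adjusted p = 0.0237). Spry4 was at 17.1% and 14%, 16.5% and 17.6%, and 26.0% and 28.4%, a difference of 11.3 points from mESCs (adjusted p = 0.0187), and its 10.1 points over C-iPSCs had an adjusted p of 0.0544. In the Nodal pathway none of 3 genes was called by the quasi-binomial test in the comparisons of 4F-iPSCs with mESCs, C-iPSCs with mESCs, and 4F-iPSCs with C-iPSCs, where 84.7%, 57%, and 31.3% of all genes were. Limma called Lefty1 in 4F-iPSCs against mESCs (adjusted p = 0.0223). The ligand Nodal was at 6.50% and 5.90%, 5.78% and 6.23%, and 8.79% and 8.84%. The inhibitor Lefty2 was between 2.16% and 4.68% in the 6 libraries over 27 CpGs, whereas its relative Lefty1 was between 11.2% and 21.4% over 13. Of the 2 cell cycle genes, Mybl2 was called in 4F-iPSCs against mESCs (84.7% of all genes), at 29.6% and 32.8% against 15.3% and 12.3% (adjusted p = 0.00208), with C-iPSCs at 19.0% and 28.8%. It was not called without mESC replicate 2. Mycn, at 3.28% to 10.2%, was not.

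The low level of the remaining CpGs was examined against the local sequence, because methylation falls with CpG density and 46.2% of the remaining CpGs of members were in dense sequence, beside 29.6% for all genes. In dense sequence 97.7% of member CpGs and 91.9% of those of all genes were under 30% in 4F-iPSCs, so that the larger gap lay outside it. Of 721 such CpGs of members, 68.2% were under 30% (mESCs), 63.1% (C-iPSCs), and 54.2% (4F-iPSCs), beside 33.2%, 22.5%, and 18% of 259212 CpGs of all genes. In 4F-iPSCs 21.6% of them were at 80% or over, beside 50% for all genes. Per gene, the median outside dense sequence over 34 members was 16% (mESCs), 22.2% (C-iPSCs), and 28.2% (4F-iPSCs), beside 43.8%, 62.0%, and 74.3% over 13635 genes, and 19 of the 34 were in the lowest 10% of genes in each cell type. Called higher outside dense sequence were 20 of 34 members in 4F-iPSCs against mESCs (90.5% of genes), 7 in C-iPSCs against mESCs (62.3%), and 4 between 4F-iPSCs and C-iPSCs (23.8%). Lefty1 and Sall1 were the members gained in the first of these, and Sall4 in the last, where its 24 CpGs were at 41.8% and 48.5% in 4F-iPSCs against 24.7% and 29.5% in C-iPSCs (adjusted p = 0.0193).

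**Figure D3:**
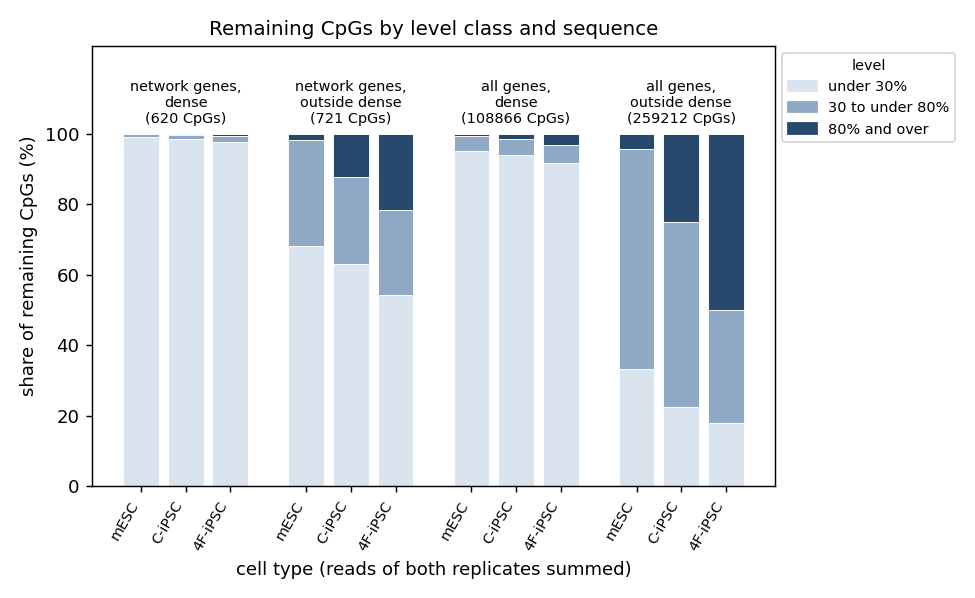
Share of remaining CpGs (percent, vertical axis) under 30%, from 30% to under 80%, and at 80% or over in each cell type, with reads of both replicates summed, for CpGs of the network genes and of all genes inside and outside dense sequence. Outside dense sequence 54.2% of CpGs of the network genes remain under 30% in 4F-iPSCs, beside 18% for all genes.

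The share of low CpGs outside dense sequence differed by gene. At Tbx3 all 37 such CpGs and at Gbx2 all 18 were under 30% in each cell type. At Esrrb 81 (mESCs), 76 (C-iPSCs), and 65 (4F-iPSCs) of 98 were low. At Lin28a the numbers were 26, 26, and 24 of 32, and at Trim71 41, 41, and 36 of 47. By contrast, 6, 3, and 2 of 43 were low at Lifr, and none of 18 at Il6st.

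The position of the low CpGs was read from the distance to the most upstream start of the basic annotation. Promoter CpGs are included here, and those around internal starts count by their distance from the most upstream start. The means are therefore not those of remaining CpGs alone. From 1 to 2 kb downstream, the mean level of member CpGs was 3.04% (mESCs), 3.11% (C-iPSCs), and 3.99% (4F-iPSCs), beside 8.95%, 11.5%, and 14.7% for all genes, with 84.8% and 68.5% of CpGs in dense sequence. From 2 to 3 kb downstream it was 3.81%, 3.91%, and 4.87%, beside 17.5%, 23.5%, and 28.9%. In that bin 87.4% of the 206 member CpGs, from 13 genes, were in dense sequence, beside 50.6% for all genes. Upstream, from -2 to -1 kb, the level was 5.61%, 5.82%, and 7.97% over 98 CpGs of 9 genes, beside 13.3%, 17.5%, and 21.7%, with 61.2% and 56.1% of CpGs in dense sequence. From -3 to -2 kb it was 11.7%, 20.3%, and 25.4% over 17 CpGs of 3 genes, beside 17.6%, 23.6%, and 28.8%. From -5 to -3 kb the means were close, with 18.7%, 24.4%, and 30.3% over 41 CpGs beside 18.5%, 24.7%, and 30.1%, and none of these member CpGs was in dense sequence beside 49.5% for all genes. Farther into the genes the gap did not hold in every bin. From 5 to 10 kb downstream the members were at 9.76%, 10.7%, and 14.5%, beside 27.3%, 36.7%, and 44.2%, with 43.6% and 34.2% in dense sequence. From 20 to 50 kb, over 165 CpGs of 10 members, they were at 37.2%, 50.7%, and 58.8%, slightly above the 35.9%, 48.1%, and 56.5% of all genes, with 1.21% and 22.3% in dense sequence. Beyond 50 kb, which 5 members reach, the levels were 18.7%, 24.6%, and 30%, beside 38.7%, 51.4%, and 60%, with 38.5% and 20.3% in dense sequence. The 187 member CpGs of this bin include the 57 promoter CpGs of Esrrb in dense sequence, which lie 60642 to 61758 bp from its most upstream start.

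**Figure D4:**
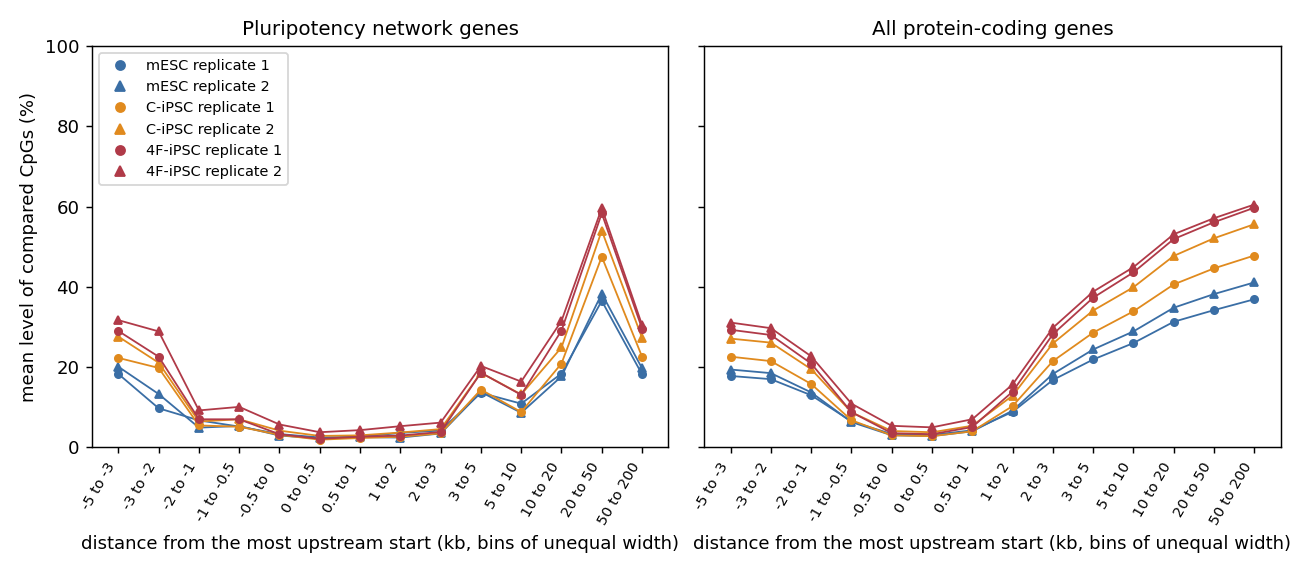
Mean methylation level of compared CpGs (percent, vertical axis) by distance from the most upstream start (kb, bins of unequal width), for the network genes on the left and all protein-coding genes on the right, with 1 line for each library. Member CpGs from 1 to 3 kb downstream stay near the level of the start, where those of all genes have risen, and from 20 to 50 kb downstream the members reach the level of all genes.

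Stretches that stayed low outside dense sequence were listed after the levels were seen, as at least 4 consecutive remaining CpGs, each under 20% in all 3 cell types, with gaps of at most 300 bp. There were 26, with 165 CpGs. Of the 32 members with at least 4 remaining CpGs outside dense sequence, 16 (50%) held one, beside 17.0% of the 12543 genes with as many, and the median number of such CpGs was 16 and 13. As the stretches were listed after the levels were seen, these shares were not tested. The Nanog stretch printed above lies from -4625 to -4422 bp of the start and was at 4.68% and 5.30% (mESCs), 6.38% and 8.28% (C-iPSCs), and 3.28% and 10.7% (4F-iPSCs). The Esrrb stretch printed above starts 41780 bp into the gene, in an intron, and was at 2.01% and 1.70%, 1.74% and 2.25%, and 1.91% and 3.33%, on 942 to 1980 reads per library. Other stretches of Esrrb began at 112310, 119558, and 140652 bp, all in introns, with levels between 1.92% and 9.55% in the 6 libraries. Upstream of Gbx2, 9 CpGs from chr1:89935549 to 89935724 were between 2.38% and 5.61%. In an intron of Nodal, 9 CpGs from chr10:61419337 to 61419506 were between 2.18% and 3.67%. Upstream of Tbx3, 9 CpGs from chr5:119668794 to 119668975 were between 1.26% and 5.79%. Stretches of Sall1 lay upstream too, and the one nearest to the start, at chr8:89046431-89046452, was between 0% and 1.64%.

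Single CpGs gave the same direction. Of all 3095 member CpGs, strong hypermethylation was found at 104 in 4F-iPSCs against mESCs, at 17 in C-iPSCs against mESCs, and at 8 between the iPSC types, where 4F-iPSCs were higher. Among remaining CpGs these were 98 (7.31%, beside 21.8% for all genes), 16 (1.19%, beside 4.20%), and 6 (0.447%, beside 1.53%). No member CpG was strongly hypomethylated in the 3 comparisons. For all genes the share among remaining CpGs was 0.0312%, 0.0367%, and 0.0304%. The genes with the most in 4F-iPSCs against mESCs were Lifr with 18 of 43, Cdh1 with 12 of 52, Sall1 with 11 of 165, and Nr5a2 with 10 of 37. Replicate spread plays no part in Fisher's test on summed reads.

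Runs of at least 3 strongly hypermethylated CpGs, with neighbors at most 300 bp apart, numbered 14 in 9 members, and all 14 were in 4F-iPSCs against mESCs. They were 0.0717% of the 19518 runs on the chromosomes, where the members held 0.28% of the compared CpGs. A run lay in the window of 9 of 41 members (22%), beside 36.0% of 18024 genes with a compared CpG. In C-iPSCs against mESCs there were 2179 runs and in 4F-iPSCs against C-iPSCs 746, in 5.29% and 1.71% of genes, and none of either overlapped a member. In 13 of the 14 runs both C-iPSC libraries lay above both mESC libraries and below both 4F-iPSC libraries, and in the Prdm14 run C-iPSC replicate 2 reached the level of the 4F-iPSCs. The runs were chosen for the difference between 4F-iPSCs and mESCs, so these values are a description.

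The Esrrb run at chr12:86452030-86452178, in an intron, was at 13.6% and 12.2% (mESCs), 32.9% and 40.9% (C-iPSCs), and 65.5% and 71.2% (4F-iPSCs). It lies between the low stretches that begin at 41780 and 112310 bp, which stood under 8% in every library. The Dppa2 run at chr16:48300975-48301038, -2933 to -2871 bp from the start and with all 3 CpGs in repeat sequence, was at 19.1% and 26.4%, 62.2% and 66.4%, and 81.5% and 84.2%. In Nr5a2 a run of 6 CpGs at chr1:136861927-136862083 was at 20.6% and 31.9%, 51.3% and 59.5%, and 72.7% and 74.3%, and another at chr1:136912438-136912468 was at 40.7% and 39.8%, 53.9% and 69.3%, and 84.8% and 82.4%. Both lie in introns. Of the 3 runs of Lifr, 2 were intronic. The other, at chr15:7097704-7097792, lies inside the gene record but at -31855 bp from the most upstream start of the basic annotation, and was at 34.3% and 39.5%, 55.9% and 77.4%, and 81.6% and 84.7%. The Prdm14 run at chr1:13118614-13118652 was at 25.9% and 31.1%, 39.1% and 64.5%, and 62.7% and 64.4%.

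Runs in coding exons were found in Sall4, Sall1, Epcam, and Cdh1. The Sall4 run at chr2:168754678-168755049 held 7 strong CpGs and was at 15.6% and 19.9% (mESCs), 31.4% and 31.3% (C-iPSCs), and 53.4% and 57.3% (4F-iPSCs). In Sall1, whose remaining CpGs as a whole were not called, 3 runs lay between chr8:89030494 and 89032815. That at chr8:89031260-89031341 was at 35.8% and 39.7%, 66.9% and 71.0%, and 88.6% and 87.1%. The Cdh1 run at chr8:106649057-106649182 was at 41.5% and 50.7%, 69.7% and 77.6%, and 87.3% and 81.6%, and the Epcam run at chr17:87646190-87646236 at 39.4% and 51.7%, 62.7% and 71.6%, and 83.5% and 80.3%.

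**Figure D5:**
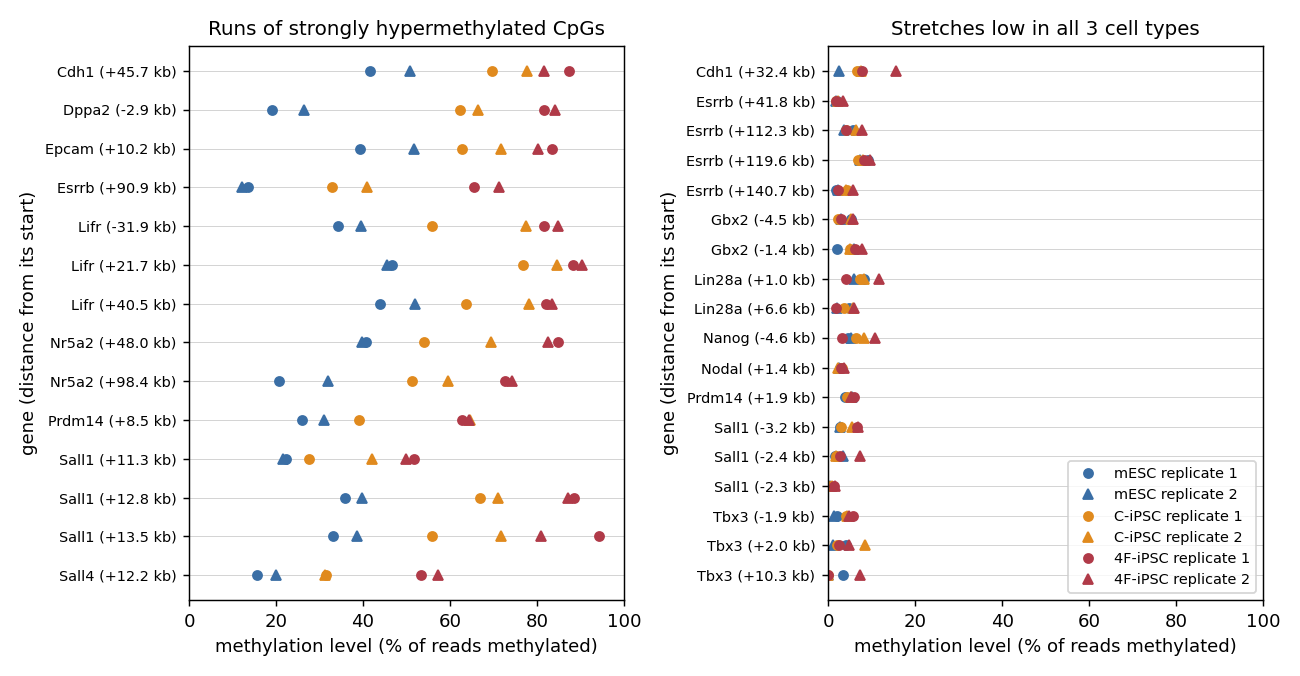
Methylation level (percent of reads methylated, horizontal axis) in each library for the 14 runs of strongly hypermethylated CpGs on the left and for stretches that stayed low in 9 members on the right, labelled by gene and distance from its most upstream start. In the runs, Prdm14 excepted, the mESC, C-iPSC, and 4F-iPSC libraries follow in that order, whereas in the low stretches the 3 cell types overlap or lie under 16%.

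Other genes of these pathways that are not among the 42 were read in the same way. Of 40 promoters, 1 was called hypermethylated in 4F-iPSCs against mESCs (13.2% of all promoters) and against C-iPSCs (5.85%), and none in C-iPSCs against mESCs (6.24%). It was that of Tet1, which encodes an enzyme that oxidizes methylated cytosine, at 24.6% and 18.7% (mESCs), 18.4% and 25.4% (C-iPSCs), and 36.9% and 41.9% (4F-iPSCs) over 5 CpGs. The 4F-iPSCs were above mESCs by 17.3 points (adjusted p = 0.000136) and above C-iPSCs by 17.7 points (adjusted p = 8e-05), the latter with 0.152 in limma. Of 38 genes with remaining CpGs, 21 were called higher in 4F-iPSCs than in mESCs (84.7% of all genes), 12 in C-iPSCs than in mESCs (57%), and 5 in 4F-iPSCs than in C-iPSCs (31.3%). None was called lower by this test or by limma (0.0709% of all genes by this test in each comparison), and the 95% intervals of all lower values reached above 0. The one furthest below was Cdh2 (N-cadherin), named after its values were seen, at 31.7% and 32.3% (mESCs), 25.7% and 43.8% (C-iPSCs), and 24% and 27.3% (4F-iPSCs). Their medians were 16.8% (mESCs), 22.1% (C-iPSCs), and 28% (4F-iPSCs), beside 10.9%, 12.2%, and 17.2% for the remaining CpGs of members and 40.8%, 58.5%, and 70.8% for all genes. The fibroblast genes had medians of 30.7%, 55.4%, and 69% over 8 genes, of which Prrx1 was under 8% and Twist1 under 14% in every library.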

How the data were processed

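For each of 6 RRBS libraries (2 each of mESCs, C-iPSCs, and 4F-iPSCs), the authors aligned read pairs to mm10 with BSMAP 2.90 (version from the submitters' processing notes), called cytosines with MOABS, and deposited for each CpG the count of reads and of methylated reads and the methylated fraction, without normalization. The deposited fraction equalled the ratio of the counts within rounding and was not used further. Reads, RNA-seq, and MEFs were not analysed here. The members and gene lists were chosen with earlier results of these data known.

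Genes were the protein-coding genes of the GENCODE M21 basic annotation of GRCm38. Methylated and unmethylated reads were summed per region and library and fitted with a quasi-binomial model over the 3 cell types. The Pearson dispersion was shrunken with limma 3.58.1 (squeezeVar, R 4.3.3, a trend on depth) and not allowed below 1. In the main fits of promoters and remaining CpGs the prior degrees of freedom were infinite. Each region therefore took the dispersion of the trend at its depth, and the SE and intervals do not reflect the spread of its own libraries. Windows followed the gene record, and distances the most upstream start of the basic annotation, which at Lifr and Fgf4 lies 38945 and 14019 bp inside the record. F tests were adjusted by the Benjamini-Hochberg method over all regions of a kind. Percentage point differences come from the pooled levels, with an SE scaled by the dispersion. With 2 libraries against 2, an exact permutation test could not give a two-sided p below 0.33. Fisher's exact test on summed reads defined strong CpGs. In data simulated for 4F-iPSCs against mESCs (14106 regions of remaining CpGs), 57 of 100 steps of 10 points and 98 of 100 of 20 points were recovered with 8 false calls. For 14176 promoters, 95 and 100 of 100 were, with 5 false calls. The simulated data varied less than the real data at remaining CpGs and promoters, with median dispersions of 2.9 and 5.02 against 14.2 and 7.92, so fewer may be recovered in the latter.

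Values per library are given for the check genes, the 8, 5, and 5 members with the largest differences in the 3 comparisons, and members with runs. Other members, and the low stretches, were named after their values were seen. Alternatives covered read and CpG minimums, promoter width and starts, limma on mean CpG levels, a replicate block, each library left out, and the strong difference. CpGs inside or outside dense sequence and a crossed block were added after seeing the data.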

Additional observations from a re-analysis of the deposited data

Results flagged for a closer look

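The methylated share of mitochondrial reads, over 12 CpGs that enter no comparison of genes, was 7.90% in 4F-iPSC replicate 2, above the 5.39% and 3.29% of the mESC libraries. It was singled out as a signal outside the main measurement. In 4F-iPSC replicate 1 the share was 3.33%. The 4F-iPSC replicate 2 library also had the highest level at 32 of 37 member promoters, and the part of bisulfite conversion in the promoter levels was not tested.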

How the results depend on the processing

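No member was called hypomethylated in promoters or remaining CpGs under any alternative run. Promoters called in 4F-iPSCs against mESCs (main 1) were 0 with at least 10 reads in each library, at least 5 CpGs, or dense sequence only, 2 in limma, and 3 outside dense sequence, with 0 to 3 on leaving out 1 library. In C-iPSCs against mESCs (main 0) 1 was called outside dense sequence, and in 4F-iPSCs against C-iPSCs (main 0) 1 with the most upstream start only (Esrrb) and 1 in limma (Spp1). For remaining CpGs, dense sequence alone left 3, 1, and 0 calls of 18, 7, and 3, where fewer CpGs entered. On leaving out 1 library the calls ranged from 10 to 19, from 0 to 12, and from 0 to 19, and the cause was not tested beyond the dispersions given. With a minimum of 5 summed reads the last count was 5. Deviations of same-numbered libraries correlated at 0.0453 (mESCs and C-iPSCs), -0.314 (mESCs and 4F-iPSCs), and 0.0989 (C-iPSCs and 4F-iPSCs) over remaining CpGs, and at 0.354, -0.265, and -0.081 over promoters. The mESC and C-iPSC libraries thus deviated together at promoters, but not every pair did, and the labels give no shared source for a number, so the numbers were not taken to pair the libraries. A replicate block gave 19, 10, and 10 calls (Lifr and Il6st among the last), beside 12441, 9493, and 8196 of all 14106 genes. With the 4F-iPSC numbers crossed it gave 18, 7, and 3. The uncrossed block left the 1, 0, and 0 promoter calls in place as counts, beside 2132, 1027, and 1142 of all 14176 promoters.

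Strong member CpGs (main 104, 17, and 8) numbered 253, 114, and 61 at a difference above 20 points and 13, 2, and 0 above 50 points, 86 to 121, 12 to 44, and 3 to 19 on leaving out 1 library, and 4 for the last at a minimum of 30 summed reads. Hypomethylated ones in C-iPSCs against mESCs were 4 above 20 points, and 0 to 1 on leaving out 1 library. In promoters (main 6, 1, and 2) they were 12, 3, and 6 above 20 points, 0, 0, and 0 above 50 points, and 4 to 7, 0 to 2, and 0 to 5 on leaving out 1 library, with 1 hypomethylated in C-iPSCs above 20 points. The mean of the 2 mESC library medians was 2.81% as a mean of CpG levels against 2.34% for promoters, and 8.28% with promoters of 0.5 kb against 11.6% for remaining CpGs. Small promoter differences that had not passed turned sign with single libraries. Without 1 of the libraries in turn, those between C-iPSCs and mESCs ran from -0.171 to 3.75 points at Zfp42 (lowest without C-iPSC replicate 2), from -2.47 to 0.729 at Tcl1 (highest without C-iPSC replicate 1), and from -4.17 to 2.07 at Dppa4 (highest without mESC replicate 1). That between 4F-iPSCs and C-iPSCs at Dppa2 ran from -0.751 (without 4F-iPSC replicate 2) to 7.18 points.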
